A study of Mus musculus with 2 samples.

Results

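Gene desert regions are stretches of open chromatin that lie far from every known protein-coding promoter. They were taken here from ATAC-seq, in which the Tn5 transposase cuts exposed DNA so that accessible chromatin can be sequenced, in granulocyte monocyte progenitors (GMP), which form neutrophils and monocytes in the bone marrow. The cells came from male adult C57BL/6J mice aged 5 to 6 weeks, with an input of 50000 cells for each of 2 biological replicates of 1 group. The replicates have separate biosamples with the same donor label, and the labels name no treatment, transgene or allele and do not say how the cells were isolated. Overlapping rows of the conservative series-level list were merged into 75148 regions, each with 1 summit (the position of the strongest signal). A region was a member when its summit lay in no annotated gene of any type and more than 200 kb from every protein-coding transcription start site (TSS). In all 1928 regions met the rule, 2.57% of the list. They were set beside the 16453 regions whose summits were also outside genes but 10 to 200 kb from a protein-coding TSS, called near-intergenic regions below.

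Gene deserts are long intervals without protein-coding genes. They make up much of mammalian chromosomes, and many border genes for developmental or blood transcription factors, cell adhesion proteins or receptors. Enhancers in them can act on a promoter across large distances, and the protein CTCF helps to fold such intervals into loops. In GMP the factors PU.1 (encoded by Spi1), C/EBP alpha and RUNX1 bind enhancers of the granulocyte and monocyte programmes.

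Of the members found in both replicates, 5 are shown first, with the 121 bases around each summit, 5′ to 3′ on the plus strand. They are the member with the highest fold enrichment for each of the motifs PU.1, RUNX, AP-1 and ETS-IRF and the next to highest for CEBP, the one with the highest fold of all and the one farthest from a protein-coding TSS. Sequences are those of RefSeq GRCm38.p6, whose chromosomes are those of mm10, and each member is named by the protein-coding genes on either side of it. Capitals mark the motif matches for which a sequence was chosen, and the sequences chosen without a motif have none.
H2afb1 to Tgif2lx2, chrX:117770448-117770568, AP-1 and PU.1: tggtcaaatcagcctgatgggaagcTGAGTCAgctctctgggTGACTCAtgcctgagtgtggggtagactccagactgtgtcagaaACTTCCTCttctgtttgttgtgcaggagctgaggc
C030005K15Rik to Atp2b1, chr10:98619310-98619430, CEBP and ETS-IRF: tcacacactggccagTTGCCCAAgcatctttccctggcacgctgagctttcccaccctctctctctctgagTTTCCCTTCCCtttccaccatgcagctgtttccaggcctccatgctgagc
C030005K15Rik to Atp2b1, chr10:98494488-98494608, RUNX: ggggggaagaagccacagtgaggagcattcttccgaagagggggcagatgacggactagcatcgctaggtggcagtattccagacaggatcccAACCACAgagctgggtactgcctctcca
Nxph1 to Ndufa4, chr6:9889979-9890099, highest fold: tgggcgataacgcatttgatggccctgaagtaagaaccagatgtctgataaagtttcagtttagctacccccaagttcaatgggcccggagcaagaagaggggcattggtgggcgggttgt
Cntnap5b to Cdh20, chr1:102628215-102628335, farthest: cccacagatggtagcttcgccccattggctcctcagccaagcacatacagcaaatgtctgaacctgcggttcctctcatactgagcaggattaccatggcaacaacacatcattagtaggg

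Each of these 5 had a fold enrichment in the list of either replicate. Fold enrichment is the authors' value for a region, a ratio with no unit, and the read depth behind it is unknown. The member on the X chromosome had folds of 18.03 in replicate 1 and 17.1 in replicate 2, with AP-1 matches at 2 places, 32 and 15 bp to the left of the summit, and a PU.1 match 30 bp to the right. The CEBP and ETS-IRF member beside Atp2b1, the gene of a plasma membrane calcium pump, had folds of 18.6 and 14.9. The RUNX member in the same interval had folds of 21.2 and 16.6. Replicate 1 had the higher fold in each of these 3.

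Most members were found again in the single replicates, but less completely than regions in general. The thresholded list of replicate 1 held 80.1% of the members (1544 of 1928), against a background of 81.9% of all 75148 regions. The list of replicate 2 held 63.6% (1226), against 69.4% of all regions. Both lists held 60.5% (1166; 95% Wilson interval 58.3 to 62.6%, which covers counting error only), against 66.1% of all regions and 63.4% of near-intergenic regions. The share was below that of near-intergenic regions on 13 of 20 chromosomes (19 autosomes and X), so it did not keep 1 direction. Neither list held 324 members, whose median fold was 5.99, against 11.2 for members in both. In the authors' looser lists 99.6% of members were found in replicate 1 and 97.5% in replicate 2. For all regions these shares were much the same, 99.4 and 97.5%. With only 1 group of 2 replicates no test between classes of regions was run, and differences are described with the value in each replicate and the spread over chromosomes.

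Among the 1166 members in both lists the fold was higher in replicate 1 for 1056 (90.6%). Their median fold was 11.3 in replicate 1 and 9.02 in replicate 2, and the median ratio between replicates was 1.22. Near-intergenic regions had a median ratio of 1.23. The order of the members was alike, with a Spearman rho of 0.83 between the replicates (1166 regions of the same 2 libraries, a description without a p).

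**Figure D1:**
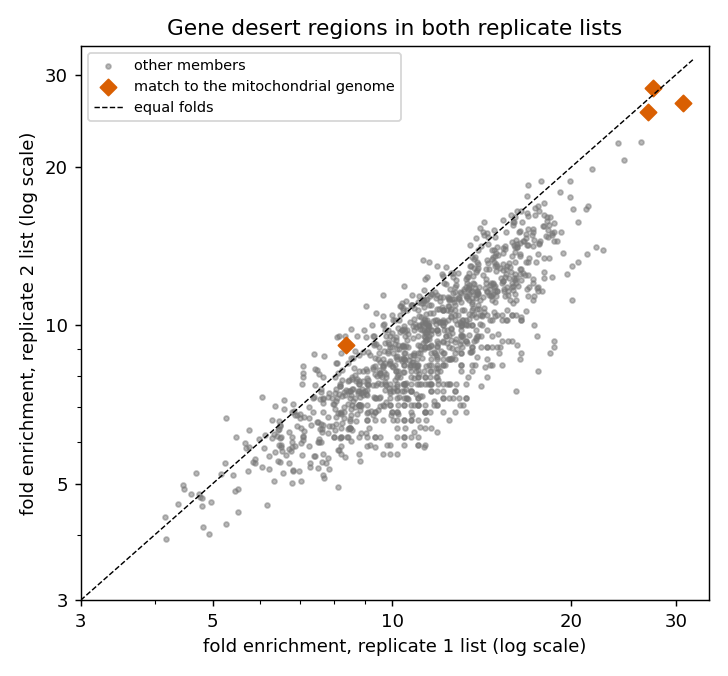
Fold enrichment of the 1166 gene desert regions in both replicate lists, replicate 1 on the horizontal and replicate 2 on the vertical axis, both on a log scale without units. Each point is a region and the dashed line marks equal folds. Most points (1056) lie below the line, and 3 of the 4 orange diamonds, regions that match the mitochondrial genome, lie in the upper right corner.

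Open regions were sparse in the deserts. Gene desert sequence, by the same rule, made up 529.8 Mb, 20.01% of the sequence of the chromosomes, and the members covered 0.175% of it. Their density was 3.64 per Mb, against 22.3 per Mb in the 738 Mb of near-intergenic sequence, a ratio of 0.163. The ratio was 0.169 in the list of replicate 1 and 0.155 in that of replicate 2. By chromosome it was 0.164 ± 0.050 (SD, n = 20 chromosomes) and below 1 on 20 of 20. Among these 20 the ratio was lowest on chromosome 19 (0.0792) and highest on X (0.268). The deserts of X were nevertheless the sparsest of the 20, with 1.78 members per Mb. Near-intergenic density on X was 6.64 per Mb, whereas the lowest of the autosomes, chromosome 7, had 21.28 per Mb. The Y chromosome was left out of the mean ratio. It held 3 members on 37.6 Mb of desert sequence and 7 near-intergenic regions, a ratio of 0.465.

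Density also fell within the deserts as distance grew. It was 6.98 per Mb at 200 to 300 kb, 3.40 at 300 to 500 kb, 2.16 at 500 to 1000 kb and 1.05 beyond 1000 kb. The lists of both replicates fell in the same order, from 6.21 to 1.04 per Mb in replicate 1 and from 4.69 to 0.716 in replicate 2. GC content of the sequence in these steps also fell, from 39.8 to 36.9%, and its part in the density was not tested.

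**Figure D2:**
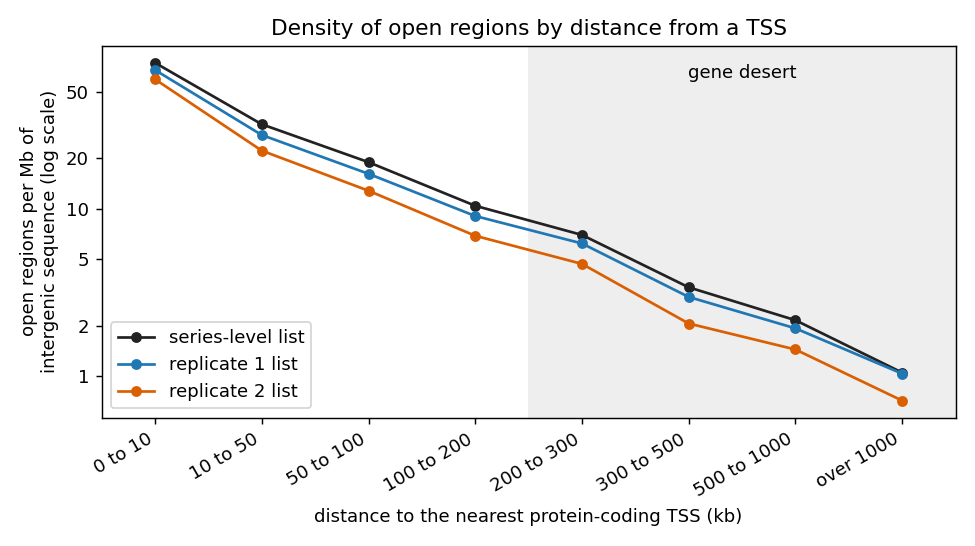
Open regions per Mb of intergenic sequence (vertical axis, log scale) by distance of the summit to the nearest protein-coding TSS in kb (horizontal axis), for the series-level list and the list of each replicate; grey marks the gene deserts. All 3 lines fall at every step, in the series-level list from 74.4 per Mb within 10 kb to 1.05 per Mb beyond 1000 kb.

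The strength of the members depended on the measure. Their median fold was 8.97, against 8.44 in near-intergenic regions and 8.09 in all regions. The authors' -log10 q ran the other way, with a median of 47.1 in the deserts, 49.3 in near-intergenic regions and 52.8 in all regions. A fold in the top 10% of all regions (13.4 or more) was reached by 307 members, 15.9%, against 11.1% of near-intergenic regions, and the desert share was the higher on 19 of 20 chromosomes. All 307 were in both replicate lists. The share in both lists rose with fold, from 16.8% of the 482 members with the lowest folds to 99.4% of the 482 with the highest. The series-level fold comes from the reads of these same replicates, so this rise is not an independent measure of their agreement. The median fold rose with distance, from 8.82 at 200 to 300 kb to 10.3 beyond 1000 kb, and the share in the top 10% rose from 13.1 to 29.2% (21 of 72). Members were of common width, with a median of 432 bp against 445 bp in near-intergenic regions, and 54 were 1 kb or wider.

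Members sat in the GC-richer, repeat-poor parts of the deserts, and near-intergenic summits lay alike in their own sequence. The 301 bases around the summits had a median GC content of 44.5%, against 38.5% over desert sequence. Around near-intergenic summits it was 47.8%, against 41.7% over near-intergenic sequence. The CpG count of these windows had a median of 3. Soft-masked bases, which mark interspersed and simple repeats in the reference, held 10.4% of member summits (200 of 1928) and 45.1% of desert sequence. They held 10.5% of near-intergenic summits and 42.8% of near-intergenic sequence. No source used here says how reads that fit several places were treated, and the part of that step in the low share in repeats was not tested.

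Motifs of blood cell factors were found at many member summits. They were searched on both strands within 50 bp of the summit and, as background, in windows of the same length 500 bp to each side. A CEBP match (TTGCNNAA) was found at 13.4% of summits (258) and in 5.5% of flanking windows, a RUNX match (TGTGGTT) at 10.6% (205) and in 2.07%, and a PU.1 match (GAGGAAGT) at 10.5% (202) and in 0.571%. The composite ETS-IRF motif, bound by PU.1 with an interferon regulatory factor, was found at 3.99% of summits and in 0.700% of flanks, and the AP-1 motif (TGANTCA) of Jun and Fos proteins at 7.31% and in 3.58%. Among these motifs the PU.1 match had the steepest contrast with its flanks, 18.4 times. CTCF matches were rare in flanks, 2 of 3856 windows, and present at 93 summits (4.82%).

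RUNX and CEBP matches had higher shares at members than at near-intergenic summits, with a spread over chromosomes that exceeded the mean difference. RUNX matches were at 10.6% of members and 7.34% of near-intergenic summits, with the higher share in the deserts on 17 of 20 chromosomes. The desert share was 10.1% in the list of replicate 1 and 10.5% in that of replicate 2. CEBP matches were at 13.4 against 10.7%, also higher on 17 of 20 chromosomes. PU.1 matches were at 10.5 against 8.78%, higher on 13 of 20, and CTCF matches at 4.82 against 6.38%, lower on 13 of 20. MYB matches (AACNGCC) were the lower in the deserts on 17 of 20 chromosomes, at 3.48 against 4.61%. The mean difference over the chromosomes, desert minus near-intergenic, was 3.32 ± 3.93 percentage points for RUNX (SD, n = 20), 2.56 ± 3.39 for CEBP and 2.09 ± 3.90 for PU.1. It was -1.72 ± 2.93 for CTCF and -1.35 ± 1.85 for MYB, so for each of these 5 motifs the SD was larger than the difference. The flanking windows differed between the classes too. CEBP matches were in 5.5% of flanks of members and 4.04% of near-intergenic flanks, and MYB matches in 2.44 and 3.11%. RUNX matches were in 2.07 and 2.50%, and PU.1 matches in 0.571 and 0.653%. The summit share over the flank share was lower in the deserts for CEBP (2.43 against 2.66) and MYB (1.43 against 1.48). It was higher for RUNX (5.12 against 2.94) and PU.1 (18.4 against 13.4). GC content differed between the classes, as given above, and its part in these shares was not tested.

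GATA matches (AGATAA), the motif of erythroid and mast cell factors, were less common at the summits (3.99%) than in the flanks (6.64%). This was not particular to the deserts. The shares were 3.73 against 5.72% for near-intergenic regions and 3.11 against 5.18% for all regions. The CRE motif (TGACGTCA), common at promoters, was at 0 of 1928 summits, which allows a share of up to 0.156% (3 counts of 1928, counting error only). It was in 4 of 3856 flanking windows (0.104%), so no difference from the flanks was detectable, and at 0.243% of near-intergenic summits. The list of replicate 2 had 1 desert summit with it. More than 1 motif was uncommon: 117 members (6.07%) had at least 2 of the 6 motifs PU.1, CEBP, RUNX, AP-1, IRF and ETS-IRF, against 4.53% of near-intergenic regions. PU.1 and CEBP matches shared 17 summits, and CEBP and RUNX matches shared 25.

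**Figure D3:**
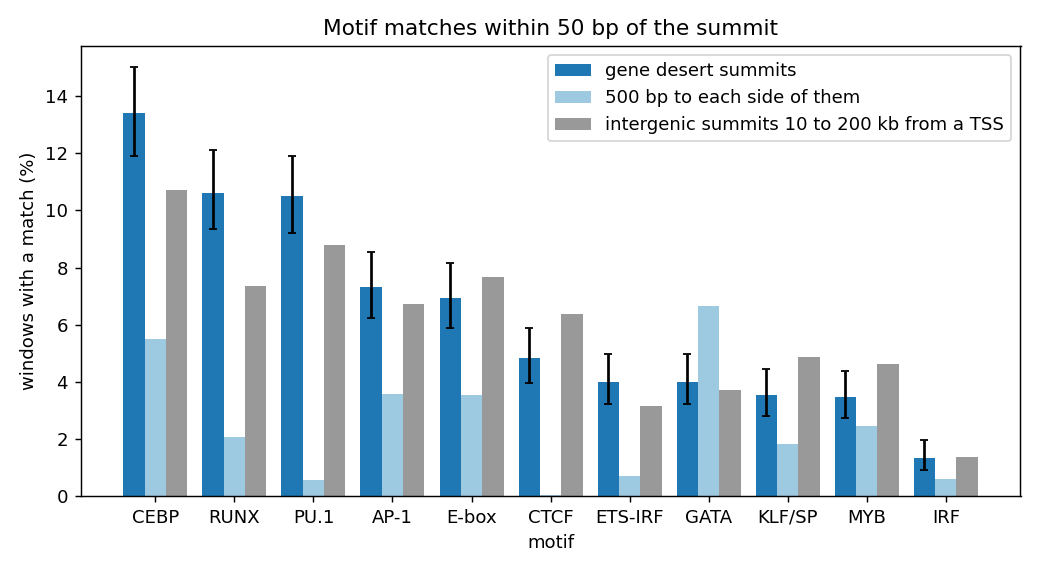
Share of windows with a motif match in percent (vertical axis) for 11 motifs (horizontal axis), at gene desert summits, in the windows 500 bp to each side of them, and at near-intergenic summits. Error bars are 95% Wilson intervals of the desert share and cover counting error only. CEBP, RUNX and PU.1 stand highest at desert summits (13.4, 10.6 and 10.5%), and GATA is the motif whose flanks (6.64%) lie above the summits (3.99%).

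Members with a CTCF match differed from the rest in other readouts. Their regions were narrow, with a median width of 282 bp, and 44.1% of them were in both replicate lists. Members with an AP-1 match had a median width of 485 bp and 69.5% were in both. Near-intergenic regions with a CTCF match were in both lists for 58.6%. Of the 482 members with the highest folds (12.02 or more), 2.70% had a CTCF match and 10.2% an AP-1 match, and of the 482 with the lowest (6.96 or less) the shares were 3.73 and 6.22%. The shares did not run in 1 direction between these ends. They were 7.26% for either motif in the 482 members next above the lowest, and 5.602% for either motif in the 482 next below the highest.

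The members were spread unevenly over the deserts. A desert was taken as an interval between neighbouring protein-coding TSSs that holds sequence over 200 kb from both and outside genes. Of 994 deserts 433 held a member and 561 (56.4%) held none. The 52 deserts with 10 or more members held 43.3% of all members on 8.13% of desert sequence. Size was a weak guide, with a Spearman rho of 0.27 between the Mb of desert sequence and the number of members over 994 deserts, a description without a p. Of 161 deserts with over 1 Mb of desert sequence, 57 held no member.

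**Figure D4:**
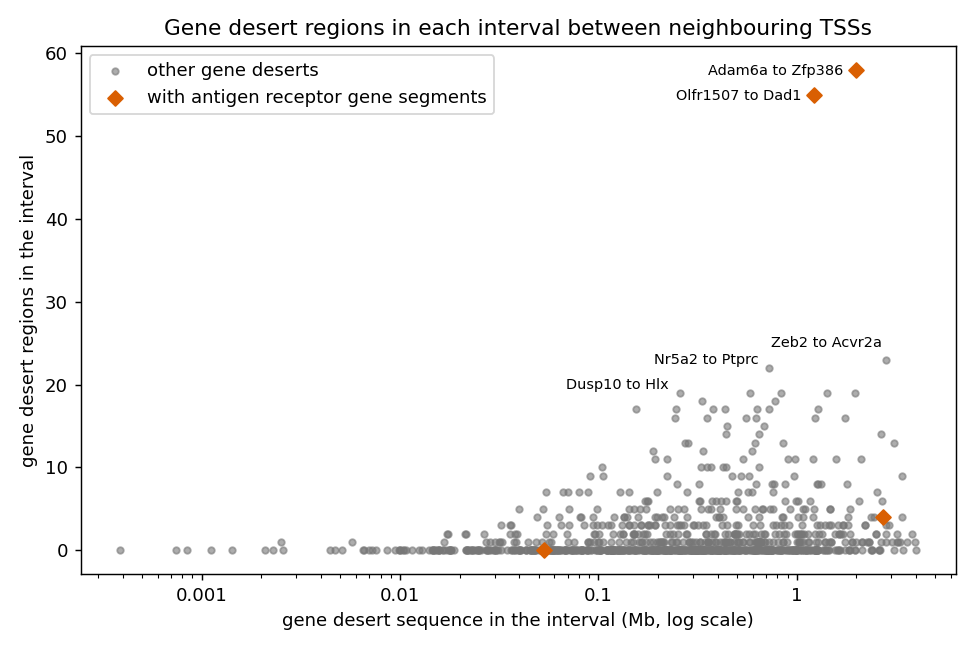
Number of gene desert regions (vertical axis) against the Mb of gene desert sequence (horizontal axis, log scale) in each of 994 intervals between neighbouring protein-coding TSSs. Orange diamonds are the 4 intervals with antigen receptor gene segments; 2 of them hold 58 and 55 members, and no other interval holds more than 23.

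The 2 fullest deserts were antigen receptor loci and are not free of genes. Immunoglobulin and T cell receptor genes are assembled in lymphocytes from V, D and J gene segments, which the annotation keeps as types of their own and which therefore do not count as protein-coding. The desert from Adam6a to Zfp386 on chromosome 12 is the immunoglobulin heavy chain locus, with 197 annotated segments and 58 members. The desert from Olfr1507 to Dad1 on chromosome 14 is the T cell receptor alpha and delta locus, with 201 segments and 55 members. With the remaining 2 intervals that hold such segments, antigen receptor loci had 117 members. These were 6.07% of all, at 19.5 per Mb, against 3.46 per Mb in the other deserts.

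Since summits in genes of any type were left out, these members lie between the segments, often close to one. The median distance to the nearest segment was 596 bp in the heavy chain locus and 306 bp in the T cell receptor locus, and 31 and 34 members lay within 1 kb. Both loci had folds in the common range, with medians of 8.66 and 8.68. The strongest member of the heavy chain locus (chr12:114990810-114991560), with a RUNX match, had folds of 18.6 and 14.98 in replicates 1 and 2. The strongest of the T cell receptor locus (chr14:53345607-53345905), with a CTCF match, had folds of 16.0 and 12.3. Of the members of the heavy chain locus 37 were in both replicate lists, and of those of the T cell receptor locus 26.

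The motif content of the antigen receptor members was unlike that of the other deserts. RUNX matches were at 17.9% of them and CTCF matches at 14.5%, against 10.2 and 4.2% of the 1811 other members. PU.1 matches were at 2.56% and CEBP matches at 5.13%, against 11 and 13.9%. The loci differed from each other, with RUNX at 17 of 58 members of the heavy chain locus and 4 of 55 of the T cell receptor locus. These loci arose by repeated duplication, and 79 of the 117 members have a second place in the genome with at least 95% identity over at least 80% of their 301 bases, against 25 of 1811 (1.38%) elsewhere. Counting members so linked as 1 family gave 82 families. The 10 members with a CTCF match in the T cell receptor locus were 4 families, whereas the 17 with a RUNX match in the heavy chain locus were 17 families of 47.

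Outside these loci, the fullest deserts were those from Zeb2 to Acvr2a and from Nr5a2 to Ptprc. The desert beside Zeb2, a zinc finger repressor active in myeloid and dendritic cell development, held 23 members over 3191 kb. Their folds ranged from 3.74 to 17.9 with a median of 11.99, 18 were nearer to Zeb2 than to Acvr2a (an activin receptor), and 14 were in both replicate lists. Between Nr5a2 and Ptprc, the gene of the leukocyte phosphatase CD45, were 22 members, of which 16 were nearer to Ptprc and 10 were in both lists. Another 5 deserts held 19 members each. They ran from Nmbr to Cited2, a coregulator needed by blood stem cells, from Dusp10 to Hlx, a homeobox factor of blood cells, from Ttll7 to Adgrl2, an adhesion receptor, from Camk1g to Plxna2, a semaphorin receptor, and from Cdh26 to Cdh4.

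The desert from Dusp10 to Hlx was much the smallest of those 5. Its 19 members lay on 0.257 Mb of desert sequence, 74.0 per Mb, with a median of 7.22 kb between neighbouring summits, and 15 of them were in both lists. Its strongest member (chr1:184471315-184471774) had folds of 16.9 and 14.2. By contrast the 19 members from Cdh26 to Cdh4, a pair of cadherin genes, included 7 in both lists. Their folds ran from 4.61 to 17.9 with a median of 7.48.

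Deserts that border blood transcription factors held members densely. Of 82 genes on a list of myeloid and blood transcription factors, 31 stand at the edge of a desert, and 27 of these border one with a member. Their 40 deserts held 225 members on 17.8 Mb, 12.6 per Mb, against 3.64 per Mb over all 994. A member was present in 77.5% of them (31 of 40), against 43.6% of all deserts, and 130 of the 225 were in both replicate lists. PU.1 matches were at 14.2% of these members and RUNX matches at 13.8%, against 10.5 and 10.6% of all members. CEBP matches were at 12.4% and CTCF matches at 1.78%, against 13.4 and 4.82% of all members. A list of 75 myeloid receptors, cytokines and effectors bordered only 14 deserts, with 67 members at 12.3 per Mb. These 67 members did not have the higher PU.1 and RUNX shares. PU.1 matches were at 10.4% of them, RUNX at 8.96%, CEBP at 10.4% and CTCF at 5.97%. Density fell with distance from a TSS, as given above, and the part of desert size in these densities was not tested.

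Runx1, Klf4 and Maf show how such members lay. Runx1 encodes the RUNX factor of blood stem and progenitor cells, and its desert held 18 members, 12 of them nearer to Runx1 than to Setd4, with 11 in both lists. The member with the highest series-level fold had folds of 13.04 in replicate 1 and 10.1 in replicate 2, and 0 of the 18 had a RUNX match. Klf4, a zinc finger factor of monocytes, had 18 members in its desert, 16 of them nearer to it, and the strongest (chr4:55823595-55824543) had folds of 17.9 and 15.4. Maf, a leucine zipper factor of macrophages, borders a desert on either side. The one toward Wwox had 17 members within 314.6 kb of Maf on 0.154 Mb of desert sequence, 110.1 per Mb. All 17 were nearer to Maf than to Wwox, 17 were in the list of replicate 1 and 12 in both. The one toward Dynlrb2 had 6 members on 0.391 Mb, 15.35 per Mb, and 2 of them were in both lists.

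Smaller groups lay beside other regulators. The 13 members between Fam49a and Mycn, a Myc family gene, were all nearer to Fam49a, and 11 were in both lists. Of these 4 had a RUNX match and 3 a PU.1 match. Bcl11a, a transcriptional repressor of lymphoid and erythroid cells, had 13 members in its desert, of which 6 were in both lists. Jun had 9 in its desert, 7 of them in both lists, and Id2, an inhibitor of helix-loop-helix factors, had 8 with 6 in both. The strongest member of the Id2 desert (chr12:25516740-25517216) was higher in replicate 2, with folds of 16.9 and 18.5. Foxo1 also had 8 in its desert, the strongest with folds of 18.7 and 14.4, and both a RUNX and an AP-1 match. Within 2 Mb of the Myc TSS were 9 members, 7 of them downstream at 395 to 884 kb. The strongest of these 7 had folds of 15.1 and 9.63, and 4 of the 7 were in both lists.

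Among receptor genes the group beside Cxcr4, the receptor that holds blood progenitors in the marrow, was tight and weak. Its 7 members spanned 64.4 kb, had a highest fold of 9.45, and 5 were in both lists. Cd180, a Toll-like surface protein, shared its desert of 9 members with Pik3r1, and 8 of the 9 were nearer to Pik3r1. The desert from Tlr4, the receptor for lipopolysaccharide, to Brinp1 held 5 members, 3 of them in both lists, and the one from Astn2 to Tlr4 held 0.

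**Figure D5:**
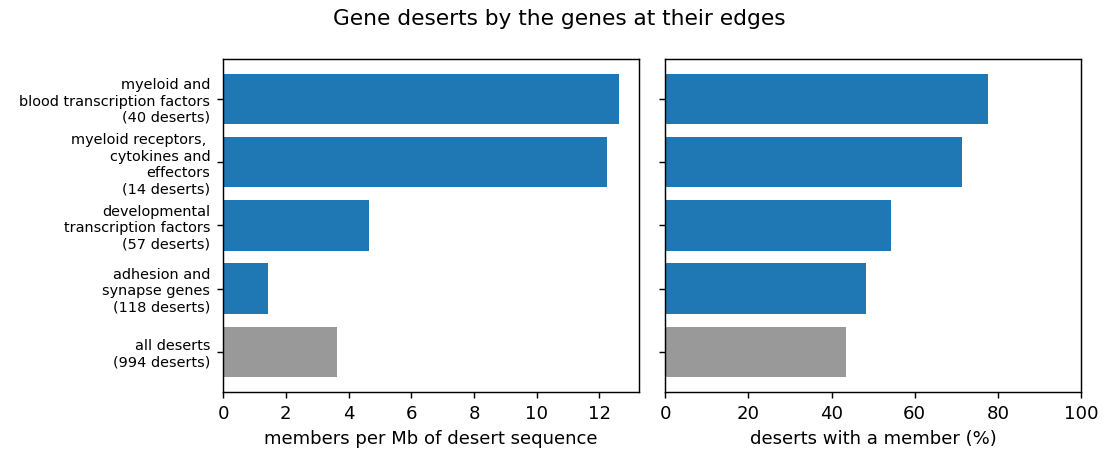
Gene desert regions per Mb of desert sequence (left) and share of deserts with at least 1 of them in percent (right), for deserts that border a gene of each of 4 lists and for all 994 deserts (grey). The 2 lists of blood and myeloid genes stand at 12.6 and 12.3 per Mb, developmental factors at 4.65 and adhesion and synapse genes at 1.44. The lists differ in desert size, with 17.8 Mb in 40 deserts for blood transcription factors and 139.8 Mb in 118 for adhesion and synapse genes. The part of size was not tested.

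In density, deserts of other gene groups were nearer to or below the mean of all deserts. The share of deserts with a member was above the 43.6% of all deserts in both groups. It was 54.4% for developmental factors and 48.3% for adhesion and synapse genes. The 57 deserts that border a gene of the list of developmental transcription factors held 127 members, 4.65 per Mb. They included 17 members between Kcnj2 and Sox9 (a factor of cartilage and testis), of which 7 were in both lists, and 10 between Insc and Sox6, of which 10 were in both. The 118 deserts that border adhesion and synapse genes held 201 members on 139.8 Mb, 1.44 per Mb. The median fold of these members was 9.49. The 3 longest deserts without a member were Pcdh20 to Pcdh9, between protocadherin genes, with 3.98 Mb of desert sequence, Slc39a10 to Tmeff2 with 3.45 Mb, and Stim2 to Pcdh7 with 3.09 Mb. The lists of genes were chosen with earlier results of these data known, so their counts are descriptions. Some deserts are counted in more than a single list. Kcnj2 to Sox9 is also among the adhesion and synapse deserts, and Kcnj3 to Nr4a2 is in the developmental and the blood factor list. The lists are not strictly of transcription factors either. The developmental list holds Bmp2, a secreted ligand, and the blood list Zfp36l1, an RNA-binding protein.

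Beyond 1000 kb from any protein-coding TSS were 72 members in 22 deserts, 19 of them in the immunoglobulin heavy chain locus and 10 between Zeb2 and Acvr2a. The farthest lay 2140 kb away between Cntnap5b and Cdh20, with folds of 14.7 and 8.42; none of the 18 motifs matched within 50 bp of its summit. A second member of that desert (chr1:101902008-101902514), 1650 kb from a TSS, had folds of 19.9 and 17.5. Between Pabpc4l and Pcdh18 were members at 1653 and 1633 kb, with folds of 17.3 and 15.2 for the first and 14.8 and 15.2 for the second. Of the 8 farthest members 7 were in both lists, and the exception, between Pcdh7 and G6pd2, was present only in the looser lists. Over all 72 members 63.9% were in both lists, against 62.0% of the members at 200 to 300 kb. Without the antigen receptor loci the shares were 56.9% (29 of 51) and 62.2%. RUNX matches were at 20.8% of the 72, a share that was 9.80% (5 of 51) without the antigen receptor loci, while the share in the top 10% of fold was 29.4% without them.

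The members with the highest folds included copies of mitochondrial DNA. The highest, between Nxph1 and Ndufa4 (chr6:9889881-9890222), had folds of 30.8 and 26.5, and 298 of the 301 bases around its summit aligned to the mitochondrial genome with 96.3% identity. The second, between Pcdh7 and G6pd2 (chr5:60042655-60043145), had folds of 27.4 and 28.3 and 98.2% identity. The next but one, between Flrt2 and Galc (chr12:97061375-97061851), had folds of 26.9 and 25.4 and 99.6% identity, and its -log10 q of 535 was the highest of all 75148 regions. A further mitochondrial match, between Ptprd and Tyrp1, had folds of 8.38 and 9.16. Such insertions of mitochondrial sequence into nuclear chromosomes are common in mammals. Of the 75148 regions 22 matched the mitochondrial genome, in a search without a limit on identity or length. Whether reads of mitochondrial DNA were placed in these members was not tested.

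The third in order, between Gm31371 and Gm15319 (chr8:20122114-20122647), had folds of 26.1 and 22.3 and 4 near-identical copies elsewhere in the nuclear genome, and its GC content of 62.5% was far above the median of the members. Of the 12 members with the highest folds, the other 8 had no such copy. The strongest of these, between Dach1 and Rpl36a-ps1 (chr14:98605437-98606128), had folds of 24.0 and 22.2, and 64.1% of its 301 bases were soft-masked. The next, between Lmo7 and Kctd12 (chr14:102733510-102734149), had folds of 24.5 and 20.6 with no soft-masked base. Another lay between Kcnj3 and Nr4a2 (chr2:56304932-56305587), 808 kb from Nr4a2, a nuclear receptor gene induced by many signals, with folds of 21.3 and 16.8. Over all members 104 (5.39%) had a near-identical second place in the nuclear genome, against 2.01% of near-intergenic regions, and their median fold was 8.70. Since 79 of the 104 lie in antigen receptor loci, the direction turned without those loci, where the share was 1.38% (25 of 1811).

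Gene desert by this rule does not mean free of transcription units. The median member lay 31.4 kb from the nearest annotated gene of any type, and 121 were within 1 kb of the TSS of a gene that is not protein-coding. Of these 29 were long intergenic noncoding RNAs, 27 T cell receptor V segments and 20 immunoglobulin V segments. With distances taken from the TSSs of genes of every type only 87 regions remained, 1.96 per Mb. The 3 members just inside the limit of 200 kb, at 200.02 to 200.2 kb, had folds of 7.52, 8.96 and 13.3, and the 3 regions just outside it, at 199.7 to 199.97 kb, had folds of 6.83, 7.08 and 8.89. The strongest of these 6, beside Maf, had folds of 13.4 and 11.7 in the replicates.

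The cell type of the libraries was checked at promoters. Of 13 genes of GMP, 12 had an open promoter in the series-level list, and Prtn3 had one in replicate 1 only. Of 14 marker genes of other cells 4 had one, Pf4 (megakaryocytes), Cpa3 (mast cells), Siglech (dendritic cells) and Pecam1 (endothelium), in each replicate. The promoters of Cd79a, Cd3e and Cd8a, genes of the B and T cells in which the antigen receptor loci are rearranged, were not in any of the 3 lists. The part of other cells in the members was not tested.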

How the data were processed

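ATAC-seq was measured in 2 biological replicates of 1 group of mouse GMP, per the labels. Deposited files were lists of open regions on mm10 without read counts, so depth and the precision it gives are unknown; which aligner and caller made them, in which version, and whether reads were shifted for Tn5, was not given in the sources used here. Rows carry the authors' fold enrichment (a ratio; over what is not stated), a q-value deposited as −log10, and the offset of the summit in bp, columns read as narrowPeak per the submitters' file list. The main list was called on the reads of both replicates. Per the file list, the replicate lists were called on each replicate alone.

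Rows that overlapped by 1 bp were merged and the summit of the row with the highest fold was kept. Genes and TSSs came from GENCODE vM21, and sequence from RefSeq GRCm38.p6. A region counted as found in another list when it overlapped a region of that list by 1 bp. Desert sequence was every base that would satisfy the rule. Motifs (18) were scanned within 50 bp of each summit. Those of CTCF, IRF, ETS-IRF, NFI, NRF1, EBF1, CEBP, AP-1, KLF/SP and MYB used ambiguity codes. Near-identical places in the nuclear genome (at least 95% identity over 80% of the 301 bases) were found with BLAST+ 2.17.0. Mitochondrial matches were found with the same tool at an e-value limit of 1e-05, without a limit on identity or length. Python 3.11.15, numpy 2.4.6, pandas 2.3.3, scipy 1.17.1 and matplotlib 3.10.9 were used. Counting of overlaps, distances, densities and motifs was tested on simulated data.

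The members, the 4 gene lists, the motifs and the alternatives were chosen with earlier results of these data known. Named were the 15 deserts with the most members, the 12 members with the highest fold, the 8 farthest, those nearest the limit, those beside listed genes and those within 2 Mb of Myc. Examples within the gene lists and the strongest member of a desert were picked after their values were seen. Regions of 1 desert are not replicates, no test between classes was run, and alternatives are given in the closing section. Sequences of members on chromosome 18, which held the CEBP member with the highest fold, were not considered for printing. A few named items are not reported here.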

Additional observations from a re-analysis of the deposited data

How the results depend on the processing

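Of 60 values of the main results under alternatives, 31 moved by less than the spread between the replicate lists (for a share of members found in both, less than its Wilson interval) or, for a count, by less than 1.5 times. The number of gene desert regions was 3629 in the authors' looser replicated list, 1202 with only regions at or above the median fold, 4197 with a limit of 100 kb, 978 with a limit of 300 kb and 87 with TSSs of genes of every type. In the list of a single replicate it was 1259 to 1716. The density ratio was 0.178 in the looser list, 0.186 with the median fold as limit, 0.206 and 0.125 with limits of 100 and 300 kb, 0.175 with summits outside protein-coding genes only, and 0.144 with TSSs of every type. It stayed below 1 in all of these. The share in both replicate lists was 32.2% for the looser list, 83.2% at or above the median fold, 57.5% with TSSs of every type and 97.1% with the looser list of each replicate.

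The share with a CTCF match was 3.94% in the looser list, 9.20% with TSSs of every type and 3.65 to 4.90% in the lists of single replicates. The share with a PU.1 match was 9.76% in the looser list, 10.2% at or above the median fold, 10.1 and 11.2% with limits of 100 and 300 kb, 16.1% with TSSs of every type, 5.65 and 13.4% with windows of 25 and 100 bp, and 10.2 to 10.4% in single replicates. It was 10.99% without the antigen receptor loci and 10.97% without members with a copy elsewhere, both chosen after seeing the data. With windows of 25 and 100 bp the CEBP share was 6.74 and 21.2%, from 13.4%, and the RUNX share 6.12 and 14.7%, from 10.6%. Of 59 values of the other results under alternatives, 36 moved by more than these limits. No paired analysis was possible because the series has only 1 group. Whether a region was detected depends on a depth that is unknown, so an empty desert is one without a region in this list.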
